A study of Mus musculus with 24 samples.

Results

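The 9 genes described here encode transcription factors that pattern the inner ear, namely Pax2, Pax8, Gbx2, Gata2, Gata3, Otx1, Otx2, Sall4 and Tfap2a. They were chosen by name as otic Pax, Gata, Gbx and Otx factors plus Sall4 and Tfap2a. All 9 were found among the 15736 genes of the count table, and all 9 passed the filter on low counts at every exposure. RNA of the mouse otocyst epithelium, the vesicle from which the whole inner ear forms, was sequenced at 3 doxycycline exposures. All embryos carried 1 copy of Rosa26rtTA, from which the doxycycline-dependent activator rtTA is made, and all were exposed to doxycycline through their mother (1.5 mg/kg injected, then chow at 200 mg/kg). Controls (con) had no other transgene. Experimental embryos (R2b) also carried Tg(tetO-s(dn)Fgfr2b)/+, from which doxycycline induces a secreted, dominant-negative form of FGFR2b. The Rosa26 locus is active in most tissues and the protein is soluble, so expression was not limited to the ear. Embryos of the group called E9.75+12h were exposed for 12 h from that embryonic stage and ended at E10.25. Those called E9.25+24h had 24 h and also ended at E10.25, while those called E10.25+24h had 24 h and ended at E11.25. A library is a pool of otocysts of 1 genotype from 1 pregnant female, so con and R2b pools are paired by litter. There were 3 litters at E9.75+12h and 4 at each other exposure, 22 libraries in all. The age of the mothers and the strain are not given in the labels.

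FGF3 and FGF10 signal through FGFR2b to induce and shape the ear, and a soluble form of the receptor binds these ligands outside the cell. Pax2 and Pax8 are paired-box factors that specify otic tissue and later the medial wall and cochlea. Gbx2 and the Otx proteins are homeodomain factors known for opposing each other at the midbrain-hindbrain boundary. In the otocyst Gbx2 belongs to the dorsomedial wall, which gives the endolymphatic duct, while Otx1 and Otx2 belong to lateral and ventral wall, and loss of Otx1 removes the lateral semicircular canal. Gata2 and Gata3 are zinc-finger factors needed for the semicircular canals and for the cochlea and its neurons. Sall4 is a zinc-finger factor of early embryonic cells, and Tfap2a (AP-2 alpha) is a factor of surface ectoderm and neural crest.

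In GENCODE annotation of GRCm38, Pax2 (ENSMUSG00000004231) lies on the plus strand of chromosome 19 from 44756045 to 44837871 and Gata2 (ENSMUSG00000015053) on the plus strand of chromosome 6 from 88193891 to 88207032. The other members are on minus strands. Pax8 (ENSMUSG00000026976) lies on chromosome 2 from 24420560 to 24475599, Gata3 (ENSMUSG00000015619) on chromosome 2 from 9857078 to 9890034, and Sall4 (ENSMUSG00000027547) on chromosome 2 from 168748332 to 168767943. Gbx2 (ENSMUSG00000034486) lies on chromosome 1 from 89927956 to 89931179, Otx1 (ENSMUSG00000005917) on chromosome 11 from 21994764 to 22002897, Otx2 (ENSMUSG00000021848) on chromosome 14 from 48657677 to 48673819, and Tfap2a (ENSMUSG00000021359) on chromosome 13 from 40715302 to 40738376. All are protein-coding. No stretch of 36 bases is shared between the transcripts of different members. Otx2 shares 3.11% of its 36-base stretches with an overlapping transcript, Gm49154, and every other member shares at most 1.08% with any other gene. The noncoding D130058E05Rik overlaps 946 exon bases of Gbx2 on the opposite strand. It had 45 to 140 counts a library where Gbx2 had at least 611. The libraries keep strand, but whether counting used it is not given in the sources used here.

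RefSeq promoter windows on GRCm38.p6 were at hand for 7 of the 9 members. The 250 bases before the start are shown for Pax2, called higher in R2b at both earlier exposures, and for Gata2 and Otx2, both called lower at E9.25+24h. They hold no bases of GENCODE exons. The Otx2 window is that of the RefSeq start nearest to the GENCODE start and lies inside the annotated gene. Sequences run 5′ to 3′ on the gene's strand, and capitals mark a match to the AP-2 motif.
Pax2 (chr19:44755502-44755751, plus strand): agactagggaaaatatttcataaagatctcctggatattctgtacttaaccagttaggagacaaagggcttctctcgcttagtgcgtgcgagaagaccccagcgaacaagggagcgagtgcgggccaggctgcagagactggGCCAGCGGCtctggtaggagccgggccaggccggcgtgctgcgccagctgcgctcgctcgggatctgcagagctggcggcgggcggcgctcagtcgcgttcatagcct
Gata2 (chr6:88193641-88193890, plus strand): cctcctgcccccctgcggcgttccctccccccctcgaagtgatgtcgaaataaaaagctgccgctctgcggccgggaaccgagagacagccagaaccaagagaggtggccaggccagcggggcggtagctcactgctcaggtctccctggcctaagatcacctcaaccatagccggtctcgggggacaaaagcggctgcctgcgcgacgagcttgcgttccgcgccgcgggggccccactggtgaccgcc
Otx2 (chr14:48667645-48667894, minus strand): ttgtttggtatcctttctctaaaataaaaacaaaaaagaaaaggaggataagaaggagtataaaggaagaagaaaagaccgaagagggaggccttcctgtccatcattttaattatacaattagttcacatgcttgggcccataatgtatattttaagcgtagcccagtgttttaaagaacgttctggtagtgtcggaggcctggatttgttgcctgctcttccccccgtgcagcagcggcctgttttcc
Motifs were searched on both strands and set against 32851 RefSeq windows of 250 bases. The ETS core GGAAGT is found in 19.7% of these windows. For the OTX core TAATCC the share is 6.25%. The GATA core AGATAA occurs in 9.99% of them. The AP-2 motif GCCNNNGGC occurs in 13.7%. The Pax2 window has 1 AP-2 match, GCCAGCGGC, starting 108 bases before the start. The Gata2 and Otx2 windows have none of the 4 motifs, and neither have those of Gbx2 and Tfap2a. The Pax8 window has 1 ETS match and the Gata3 window has 3 AP-2 matches. The RefSeq start used for Gata3 lies 11434 bases from the GENCODE start, and all 250 bases of its window are in GENCODE exons. In the Gbx2 and Tfap2a windows 250 and 242 bases are in GENCODE exons. A match describes letters in a window and shows no binding.

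Library totals ran from 18676615 to 28241583 counts. All 11 otic epithelium markers (such as Epcam, Oc90 and Sox10) had counts in every library, with summed levels of 2189 to 7817 CPM, that is, counts scaled to library size with TMM factors over all libraries. Fgfr2 and Ighg1, which both take up reads of the transgene, separated R2b from con without overlap at E9.75+12h and E9.25+24h. At E10.25+24h they went against the labels in litter 1. Counts of Ighg1 there were 15754 in the pool labelled con and 1504 in the one labelled R2b. The con pool of litter 3 had 5106. Etv5, a target of FGF signalling, stood in litter 1 at 17.2 CPM under the con label and 107 CPM under the R2b label. Litters 2 to 4 had 110 to 114 CPM of Etv5 in con and 24.4 to 68.5 CPM in R2b. In the deposited table each exposure has a block of R2b columns and a block of con columns, and the 2 columns of this litter stand in the block opposite to their label. The labels were kept. Fold changes, differences between exposures, the order of levels, ratios and likeness are also given without this litter, with litter 3 kept. Library names share a prefix within each exposure and differ in it between exposures, and what the prefix stands for is not given in the sources used here. Exposure and whatever it marks cannot be told apart in levels, and R2b was compared with con within an exposure.

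At E9.75+12h, 4 of the 9 members were called, Pax2 and Gbx2 higher and Otx1 and Otx2 lower in R2b. Called means a Benjamini-Hochberg adjusted p (FDR) under 0.05 in edgeR's quasi-likelihood test. The share called among all 14882 genes tested was 20.0%, 1518 of them higher and 1455 lower. An unadjusted p under 0.05 was found for 6 members and 35.0% of all genes. For 6 members the con and R2b libraries did not overlap, against 39.1% of all genes. At E9.25+24h, 4 members were called again, Pax2 higher and Otx1, Otx2 and Gata2 lower, against 15.6% of all 14979 genes (1362 higher and 973 lower). The same 4 members had no overlap between groups, against 22.4% of all genes. An unadjusted p under 0.05 was found for 5 members and 32.2% of all genes. The median absolute log2 fold change of the members was 0.50 at E9.75+12h, beside 0.26 over all genes, and 0.42 at E9.25+24h, beside 0.16. At E10.25+24h none of the 9 members was called by edgeR or by DESeq2, nor was any of 15203 genes in edgeR (0%). The genes not called include Fgfr2 and Ighg1, which take up reads of the transgene. They also include 4 targets of FGF signalling, Etv4, Etv5, Spry1 and Dusp6. The lack of calls at this exposure thus does not show that the members did not respond. At E10.25+24h 1 member, Otx1, and 1.15% of all genes had an unadjusted p under 0.05. The balance of calls over all genes at E9.75+12h moved from the split just given to 2025 higher and 1059 lower with upper-quartile factors. It moved to 1799 and 2761 with all libraries in one fit, where the dispersions and the genes tested changed along with the factors.

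**Figure D1:**
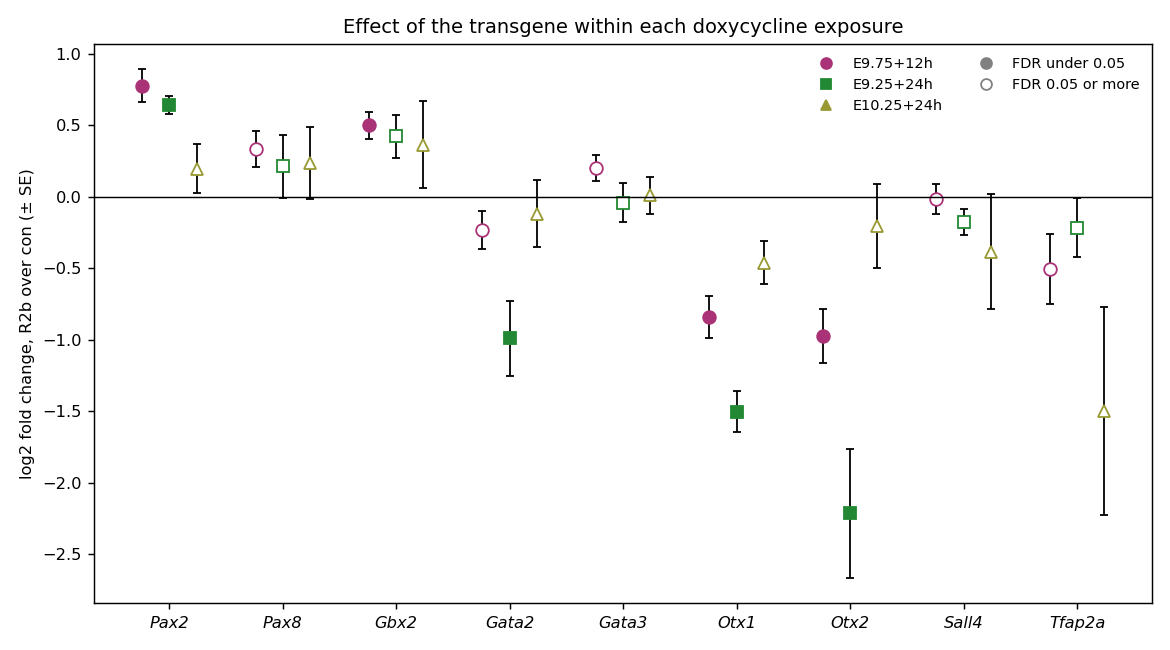
Log2 fold change of R2b over con (vertical axis) for each of the 9 factors, fitted within each exposure, with bars of 1 SE and filled symbols at an FDR under 0.05. Otx1 and Otx2 lie lowest at E9.25+24h, at -1.50 and -2.22, Pax2 lies above zero at 0.78 and 0.64 at the earlier exposures, and all symbols of E10.25+24h are open.

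Levels of different genes were compared per kilobase of exon. In con at E9.75+12h Pax2 came first at 54.9 ± 5.16 CPM per kilobase (SD, n = 3). Gbx2 followed at 49.2 ± 3.72 and Gata3 at 42.0 ± 2.77 CPM per kilobase, and the ranges of Pax2 and Gbx2 overlapped. Otx1 at 23.0 ± 3.33, Gata2 at 18.7 ± 1.69, Sall4 at 11.6 ± 1.14 and Otx2 at 8.52 ± 2.36 CPM per kilobase formed the middle. Otx1 overlapped with Gata2 there, and Sall4 with Otx2. Pax8 at 4.03 ± 0.04 and Tfap2a at 1.69 ± 0.51 CPM per kilobase were lowest and did not overlap. In con at E9.25+24h the order began with Gbx2 at 33.7 ± 8.02 CPM per kilobase (SD, n = 4), above Pax2 at 22.2 ± 1.48 and Gata3 at 20.1 ± 3.81. From Sall4 at 11.0 to Pax8 at 2.94 CPM per kilobase each neighbour in the order overlapped with the next. In the libraries labelled con at E10.25+24h Gata3, Pax2 and Gata2 overlapped at 34.5, 32.4 and 31.0 CPM per kilobase. Gbx2 stood at 15.1, Otx2 at 12.6 and Otx1 at 9.86 CPM per kilobase, and Sall4 at 4.46, Tfap2a at 1.86 and Pax8 at 1.39 CPM per kilobase came last. Without litter 1 Otx2 at 13.9 CPM per kilobase stood just above Gbx2 at 13.7, their ranges overlapped, and the rest of the order was as before.

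**Figure D2:**
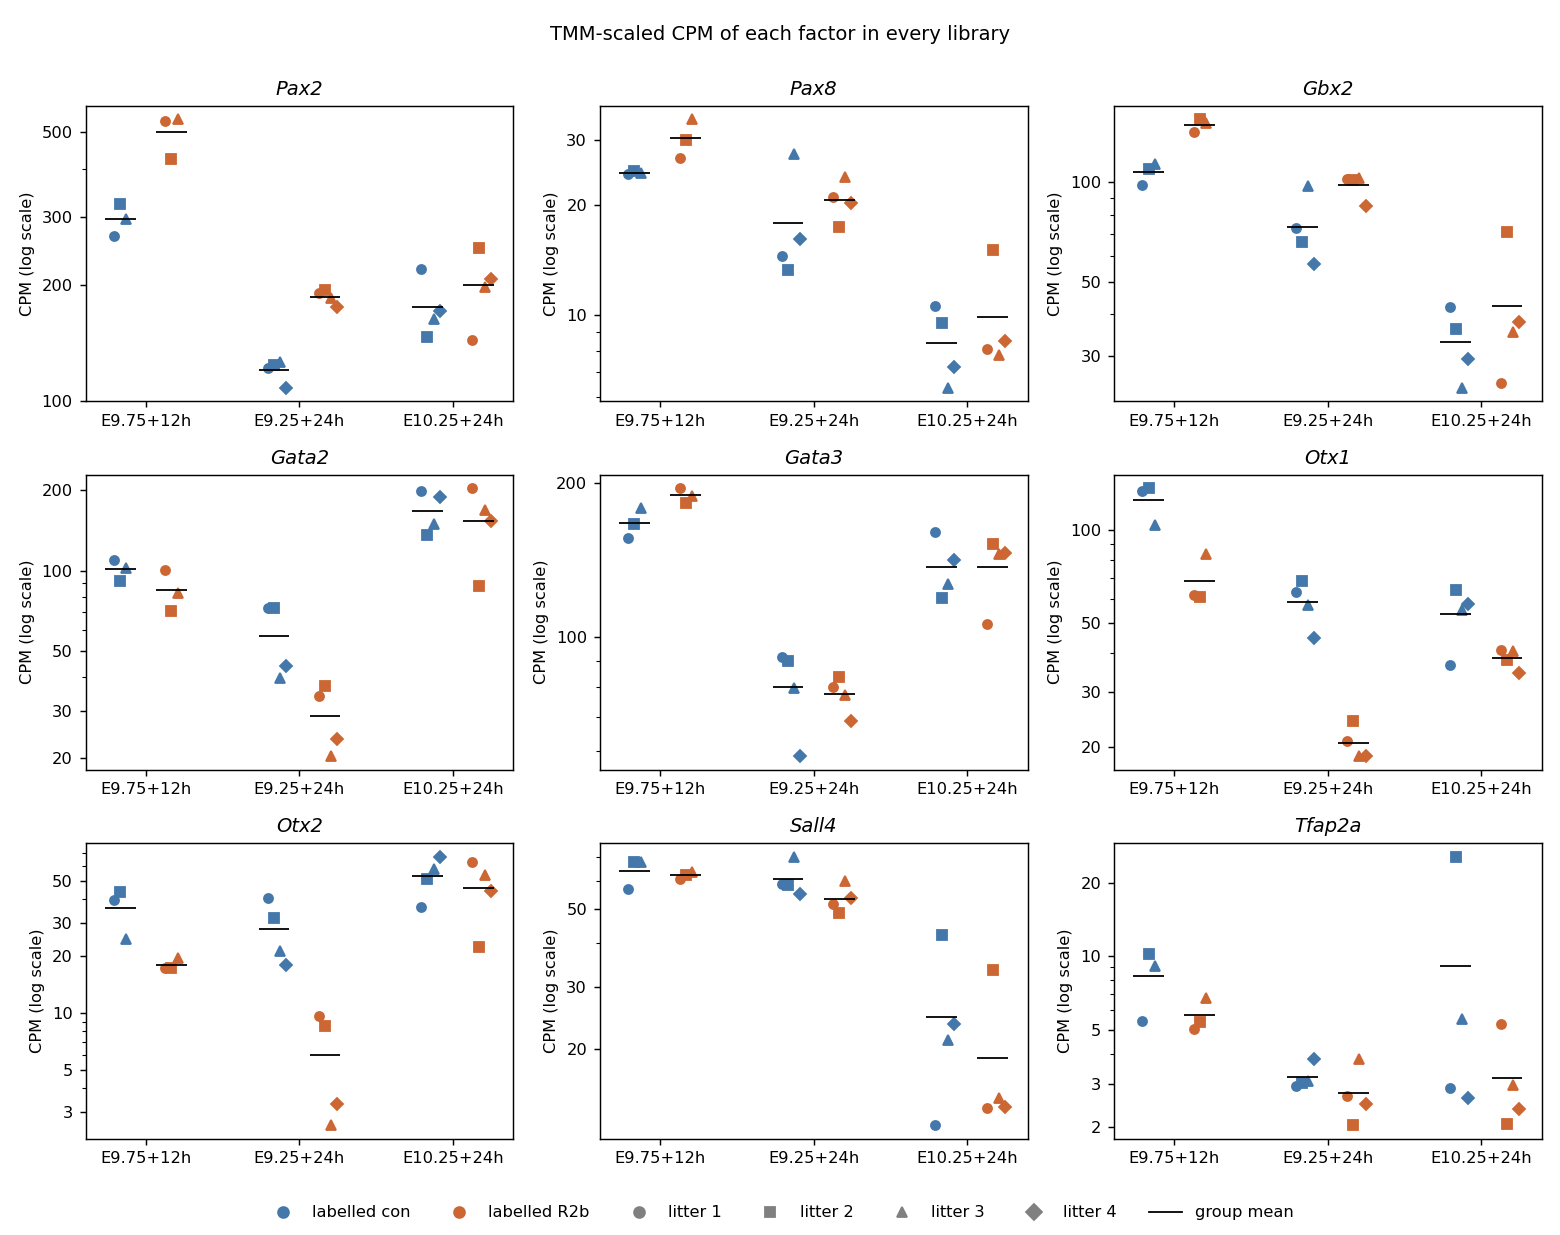
TMM-scaled CPM of each factor in every library on a log axis, by exposure and label, with litters as symbols and group means as lines. Otx1, Otx2 and Gata2 of R2b lie wholly below con at E9.25+24h, Pax2 wholly above it at E9.75+12h and E9.25+24h, and 1 con library of E10.25+24h stands at 25.5 CPM of Tfap2a.

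Pax2 was higher in R2b in every litter of the earlier exposures. Con pools of litters 1 to 3 measured 269, 325 and 297 CPM at E9.75+12h, and their R2b counterparts 534, 427 and 540 CPM. The lowest R2b library was above the highest con library, and the log2 fold change was 0.78 (SE 0.12, edgeR FDR 0.00153), 1.71-fold. Without litter 1 the value was 0.66 and the call was lost (FDR 0.0562). At E9.25+24h Pax2 was at 122, 124, 126 and 108 CPM in con of litters 1 to 4 and at 191, 195, 185 and 176 CPM in R2b. Each group kept within a narrow band and the bands were far apart. The log2 fold change was 0.64 (SE 0.06, edgeR FDR 7.68e-04), and Pax2 was called there in all 23 alternative fits, with values of 0.59 to 0.67. These libraries are bulk pools, in which a change in the number of cells of a kind and a change in RNA per cell cannot be told apart.

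Pax8, the close relative of Pax2, was expressed well below it and was not called at any exposure. Con pools measured 24.3, 24.7 and 24.4 CPM at E9.75+12h and R2b pools 26.8, 30.1 and 34.3 CPM. There was no overlap, and the log2 fold change was 0.34 (SE 0.13, edgeR FDR 0.0811). It was called there only with upper-quartile factors (0.41, FDR 0.0398). Con pools measured 14.5, 13.3, 27.5 and 16.2 CPM at E9.25+24h and R2b pools 20.99, 17.4, 23.9 and 20.3 CPM. The con library of litter 3 stood above all R2b libraries, and the log2 fold change was 0.22 (SE 0.22, FDR 0.548). Without that library it was 0.50 (FDR 0.0415).

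Gbx2 was higher in R2b at both earlier exposures in every litter, and it was called at E9.75+12h. There con pools measured 98.1, 110 and 114 CPM and R2b pools 142, 155 and 151 CPM. The groups did not overlap and the log2 fold change was 0.50 (SE 0.09, edgeR FDR 0.00487), 1.42-fold. Without litter 1 it was 0.47 (FDR 0.0872), and with all libraries in one fit 0.48 (FDR 0.178). At E9.25+24h Gbx2 was at 72.9, 66.1, 97.6 and 56.8 CPM in con and 102, 101, 103 and 84.8 CPM in R2b. Con of litter 3 stood within the R2b range, and the log2 fold change of 0.42 (SE 0.15, FDR 0.0915) did not pass. With the litter as a block it was 0.44 (FDR 0.00146), with DESeq2 0.42 (FDR 0.0343), without litter 3 0.57 (FDR 0.0363), and without the con library of litter 3 alone 0.59 (FDR 0.0163). Pax2 and Gbx2 are also expressed in the hindbrain, which lies beside the otocyst. Of 11 hindbrain markers 2 could be summed (Pax3 and Nkx6-1). The other 9, Pax6 and Egr2 among them, were not in the count table, whose lowest gene total was 100 counts. The sum of Pax3 and Nkx6-1 was 0.626 to 1.20 CPM in con against 1.31 to 1.49 CPM in R2b at E9.75+12h, and 0.266 to 2.25 against 0.388 to 3.40 CPM at E9.25+24h. It was higher in R2b in each litter of both exposures. The sums of otic epithelium, neural crest and glia, and surface ectoderm markers moved the same way in each of these litters. Those of blood, endothelium and mesenchyme markers did not. The mesenchyme sum was lower in R2b in litter 3 at E9.75+12h (440 in con and 303 CPM in R2b) and in litter 4 at E9.25+24h (1416 and 1308 CPM). It was higher in R2b in the other litters of both exposures. The otic epithelium sum was 3674 to 3998 CPM in con and 3869 to 4912 CPM in R2b at E9.75+12h, and 2189 to 3584 and 3108 to 4999 CPM at E9.25+24h. For 5 of 6 neural crest and glia markers (Foxd3 was not in the count table) the sums were 443 to 594 and 590 to 647 CPM, and 284 to 335 and 347 to 378 CPM. For 5 of 7 surface ectoderm markers they were 46.0 to 53.1 and 52.6 to 70.3 CPM, and 36.3 to 59.0 and 46.8 to 78.9 CPM. The part of these cells in the Pax2 and Gbx2 differences was not tested.

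Gata2 was lower in R2b at E9.25+24h, to near 50% of con in each litter. Con pools of litters 1 to 4 measured 72.6, 72.7, 39.8 and 44.0 CPM and R2b pools 34.0, 37.1, 20.3 and 23.5 CPM. Litters 1 and 2 were higher than litters 3 and 4 in both groups, and the groups did not overlap. Its log2 fold change was -0.99 (SE 0.26, edgeR FDR 0.0351), and the litter ratios were close to each other, from -1.09 to -0.90 on the log2 scale. Without a block the call rested on each single litter. Without litter 1, 2, 3 or 4 the value was -0.95, -0.99, -0.99 or -1.02, at FDRs of 0.139, 0.115, 0.0557 and 0.0506. It was lost without the con library of litter 1 or 2 (FDR 0.0802 and 0.0845) and without any one R2b library (FDR 0.0526 to 0.0703). With the litter as a block the FDR was 7.09e-07, and Gata2 stayed called whichever litter was left out. Gata2 is also a factor of blood and endothelial cells. All 12 endothelial markers were analysed, and their sum in litters 1 to 4 was 57.7, 31.8, 16.6 and 333 CPM in con and 48.2, 33.1, 16.4 and 150 CPM in R2b. The sum of 10 of 12 blood markers was 246, 156, 10.1 and 1663 CPM in con and 254, 135, 13.6 and 644 CPM in R2b. Both sums were highest in litter 4 and lower in its R2b pool. Their part in the Gata2 difference was not tested.

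At E9.75+12h Gata2 was at 109, 91.2 and 103 CPM in con and 101, 70.8 and 82.2 CPM in R2b. The groups overlapped, and the fitted log2 difference was -0.23 (SE 0.13, edgeR FDR 0.233). Gata3, needed for hearing in mouse and human, was not called at any exposure. Con pools measured 156, 166 and 178 CPM at E9.75+12h and R2b pools 196, 183 and 189 CPM. They did not overlap, and the fitted log2 difference was 0.20 (SE 0.09, FDR 0.13). Only upper-quartile factors gave a call (0.28, FDR 0.0475). At E9.25+24h con pools measured 91.6, 89.9, 79.6 and 58.6 CPM and R2b pools 80.1, 83.7, 77.4 and 68.7 CPM. The groups intermingled, with a fitted log2 difference of -0.04 (SE 0.14, FDR 0.873).

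Otx1 and Otx2 were lower in R2b in every litter of the earlier exposures. At E9.75+12h Otx1 was at 133, 136 and 104 CPM in con and 61.4, 60.6 and 83.3 CPM in R2b. Litter 3 showed the smallest gap, and the groups did not overlap. The log2 fold change was -0.84 (SE 0.15, edgeR FDR 0.00343), and without litter 1 it was -0.72 (FDR 0.0872). At E9.25+24h Otx1 was at 63.2, 68.6, 57.2 and 44.9 CPM in con and 20.8, 24.1, 18.7 and 18.6 CPM in R2b. The highest R2b library was well below the lowest con library. Its fitted log2 fold change of -1.50 (SE 0.14, edgeR FDR 7.68e-04) leaves 0.353 of the con level, and it was called in all 23 alternative fits, with values of -1.62 to -1.41.

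Otx2 had the lowest log2 fold change of the 9 members at both earlier exposures. At E9.75+12h it was at 39.6, 43.6 and 24.7 CPM in con and 17.4, 17.3 and 19.5 CPM in R2b. R2b libraries were nearly equal, con varied, and the groups did not overlap. The log2 fold change was -0.97 (SE 0.19, edgeR FDR 0.00566). Without litter 1 it was -0.87 (FDR 0.11), and with all libraries in one fit -0.99 (FDR 0.0763). At E9.25+24h Otx2 was at 40.6, 31.9, 21.3 and 17.9 CPM in con and 9.62, 8.49, 2.55 and 3.29 CPM in R2b, from 57 to 204 counts. The lower con litters, 3 and 4, were also the lower R2b litters. Its log2 fold change of -2.22 (SE 0.45, edgeR FDR 0.0149) leaves 0.216 of con, and by size it stood at percentile 99.8 of all genes tested. Without litter 1 or 2 the value was -2.30 or -2.34 and not called (FDR 0.065 and 0.0806). With the litter as a block the FDR was 3.32e-06, and Otx2 stayed called whichever litter was left out.

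Sall4 and Tfap2a were not called at either earlier exposure. At E9.75+12h Sall4 con pools measured 56.8, 67.7 and 67.7 CPM and R2b pools 60.8, 62.4 and 63.6 CPM. Its log2 fold change was -0.02 (SE 0.10, edgeR FDR 0.927), and 0.06 with upper-quartile factors. Con pools measured 58.8, 58.3, 70.3 and 55.2 CPM at E9.25+24h and R2b pools 51.6, 48.5, 60.1 and 53.6 CPM. It was slightly lower in 4 of 4 litters while the groups overlapped, and the log2 difference was -0.18 (SE 0.09, FDR 0.216). With the litter as a block that value was -0.18 (FDR 0.0143). For Tfap2a con pools measured 5.44, 10.19 and 9.16 CPM at E9.75+12h and R2b pools 5.05, 5.38 and 6.76 CPM. Its log2 fold change there was -0.50 (SE 0.24, FDR 0.165), and the groups overlapped. Its counts at E9.25+24h were 42 to 85 a library, which is 2.94 to 3.80 CPM in con and 2.04 to 3.80 CPM in R2b. The fitted log2 difference was -0.22 (SE 0.21, FDR 0.52).

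At E10.25+24h the members of litter 1 ran against those of litters 2 to 4. Pax2, Pax8, Gbx2 and Gata3 were higher in the library labelled R2b in litters 2, 3 and 4 and lower in litter 1. Otx1, Otx2, Sall4 and Tfap2a were lower in litters 2, 3 and 4 and higher in litter 1. These are 8 of the 9 members, and Gata2 differed in sign among litters 2 to 4. Ighg1 and Etv5 also ran against the labels in litter 1. The share of all genes with such a reversal was not counted, so the pattern is not shown to be particular to the members. Under the con label Gbx2 measured 42.2, 36.2, 24.1 and 29.4 CPM in litters 1 to 4, and under the R2b label 24.8, 71.1, 35.3 and 38.0 CPM. The library labelled R2b of litter 2 stood apart at the top, and the others intermingled. Otx1 measured 36.7, 64.1, 55.2 and 57.8 CPM under the con label and 41.1, 37.9, 40.7 and 34.5 CPM under the R2b label. Litter 1 held the lowest library labelled con and the highest labelled R2b.

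**Figure D3:**
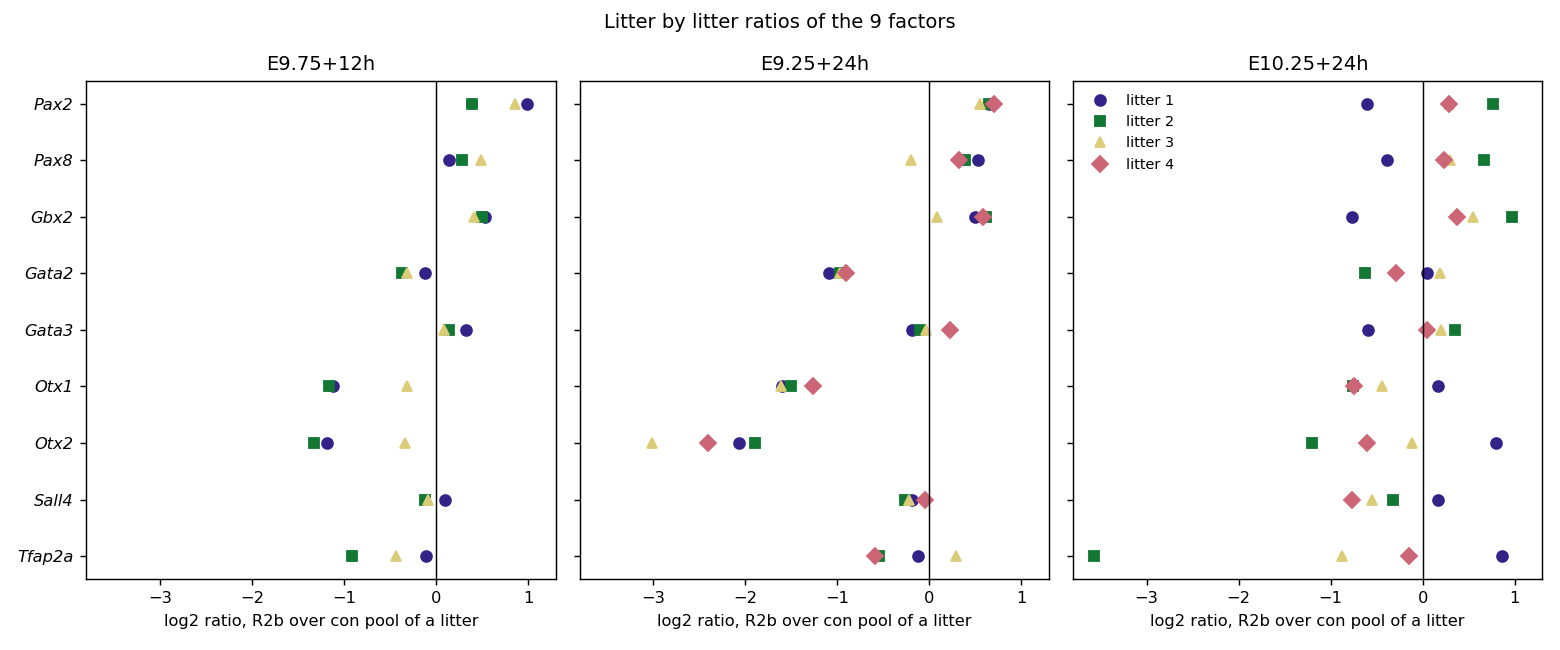
Log2 ratio of the R2b over the con pool of the same litter (horizontal axis) for each factor, by exposure, with a symbol for each litter. At E10.25+24h litter 1 lies on the other side of zero from litters 2 to 4 for 8 of 9 factors, while Otx1 and Otx2 lie below zero in every litter of the other exposures. The share of all genes with such a reversal was not counted.

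With all 4 litters the log2 fold changes at E10.25+24h were 0.20 for Pax2 (SE 0.17), 0.24 for Pax8 (SE 0.25) and 0.36 for Gbx2 (SE 0.30). They were -0.12 for Gata2 (SE 0.23), 0.01 for Gata3 (SE 0.13), -0.46 for Otx1 (SE 0.15) and -0.20 for Otx2 (SE 0.30). Sall4 was at -0.38 (SE 0.41) and Tfap2a at -1.50 (SE 0.73), and every member's edgeR FDR was 0.9999. Without litter 1 and without a block none was called either, with values of 0.47 for Pax2 (FDR 0.118), 0.71 for Gbx2 (FDR 0.285), -0.63 for Otx1 (FDR 0.0756) and -0.53 for Otx2 (FDR 0.428). The others were then at 0.46 for Pax8, -0.18 for Gata2, 0.21 for Gata3, -0.47 for Sall4 and -2.15 for Tfap2a, at FDRs of 0.227 to 0.773. With litter 1 left out and the remaining litters as a block, 614 genes were called, among them Gbx2 (0.66, FDR 0.0351), Otx1 (-0.63, FDR 0.0208) and Sall4 (-0.52, FDR 0.0418). Pax2 was at 0.46 (FDR 0.0535) in that fit. All fits without litter 1 kept the con pool of litter 3, which had 5106 counts of Ighg1, where con of litters 2 and 4 had 28 and 16. The part of that pool in these values was not tested.

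Single libraries set several levels at E10.25+24h. Tfap2a measured 2.89, 25.5, 5.52 and 2.62 CPM under the con label in litters 1 to 4, and 5.31, 2.06, 2.97 and 2.36 CPM under the R2b label. The con library of litter 2 was thus far above every other. In it the relative Tfap2b was at 69.2 CPM, where no other library exceeded 1.27 CPM, and the sum of 5 of 7 surface ectoderm markers was 188 CPM, where the others of this exposure had 47.7 to 136 CPM. Krt5 and Krt14 were not in the count table. The part of surface ectoderm in the Tfap2a value was not tested. Without that library the log2 fold change of Tfap2a was -0.21. Sall4 measured 12.2, 42.0, 21.2 and 23.5 CPM under the con label and 13.6, 33.6, 14.5 and 13.7 CPM under the R2b label, so both pools of litter 2 were the highest of their label. Among the libraries labelled R2b, that of litter 2 also had the highest Pax2 and Pax8, at 250.1 and 15.1 CPM, and the lowest Gata2 and Otx2, at 87.4 and 22.2 CPM.

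The difference between exposures was tested itself, as a contrast in one fit of all 22 libraries, and no member passed (0% of 15688 genes at an FDR under 0.05 in edgeR for either contrast). For the step from E9.75+12h to E9.25+24h, 12.2% of genes had an unadjusted p under 0.05, and the members that did were Otx1 and Otx2. Their effect was lower at E9.25+24h by -0.64 (SE 0.24, FDR 0.307) and -1.23 (SE 0.56, FDR 0.391) on the log2 scale. For Pax2 the difference was -0.12 (SE 0.20) and for Gata2 -0.74 (SE 0.37). For E10.25+24h minus E9.25+24h the share was 8.57%, and 4 members were among those genes. The differences were 1.04 for Otx1 (SE 0.22, FDR 0.112), 2.01 for Otx2 (SE 0.51, FDR 0.193), 0.87 for Gata2 (SE 0.34, FDR 0.47) and -0.45 for Pax2 (SE 0.19, FDR 0.519). Without litter 2 of E10.25+24h the Otx1 difference was 1.15 (FDR 0.043), and 69 of all genes were called. That fit kept litter 1, in which Ighg1 went against the labels. Without litter 1 of E10.25+24h the 4 differences were 0.86 for Otx1 (FDR 0.279), 1.67 for Otx2 (FDR 0.597), 0.80 for Gata2 (FDR 0.9601) and -0.19 for Pax2 (FDR 0.9999). Both contrasts use the E9.25+24h libraries.

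Ratios within a library do not depend on its scaling. They were taken per kilobase, and the Gbx2 to Otx2 ratio was added with the values known, so it is given without a test. In con it was 4.81 to 8.93 at E9.75+12h, and 3.48 to 8.89 for E9.25+24h. In R2b it was 15.0 to 17.4 and 20.6 to 78.5, above every con library of its exposure. At E10.25+24h it was 0.804 to 2.26 in the libraries labelled con and 0.764 to 6.20 in those labelled R2b, and overlapped. Without litter 1 it was 0.804 to 1.37 and 1.28 to 6.20, which still overlapped. The Gata3 to Gata2 ratio was 1.68 to 2.71 in con and 3.06 to 5.17 in R2b at E9.25+24h, without overlap. At E9.75+12h it was 1.94 to 2.47 and 2.63 to 3.51, again without overlap, and at E10.25+24h 1.02 to 1.20 and 0.708 to 2.36, or 1.02 to 1.20 and 1.17 to 2.36 without litter 1. Otx1 to Otx2 gave 2.43 to 3.27 in con and 2.73 to 3.33 in R2b at E9.75+12h, and 1.21 to 2.09 and 1.68 to 5.70 at E9.25+24h, overlapping at both. It also overlapped at E10.25+24h, at 0.669 to 0.975 and 0.508 to 1.33, or 0.669 to 0.975 and 0.5899 to 1.33 without litter 1. The Pax2 to Pax8 ratio was 12.4 to 14.7 in con and 15.9 to 22.3 in R2b at E9.75+12h, without overlap. It overlapped at E9.25+24h, at 5.14 to 10.47 and 8.69 to 12.5, and at E10.25+24h, at 17.3 to 28.7 and 18.6 to 28.4 with or without litter 1.

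**Figure D4:**
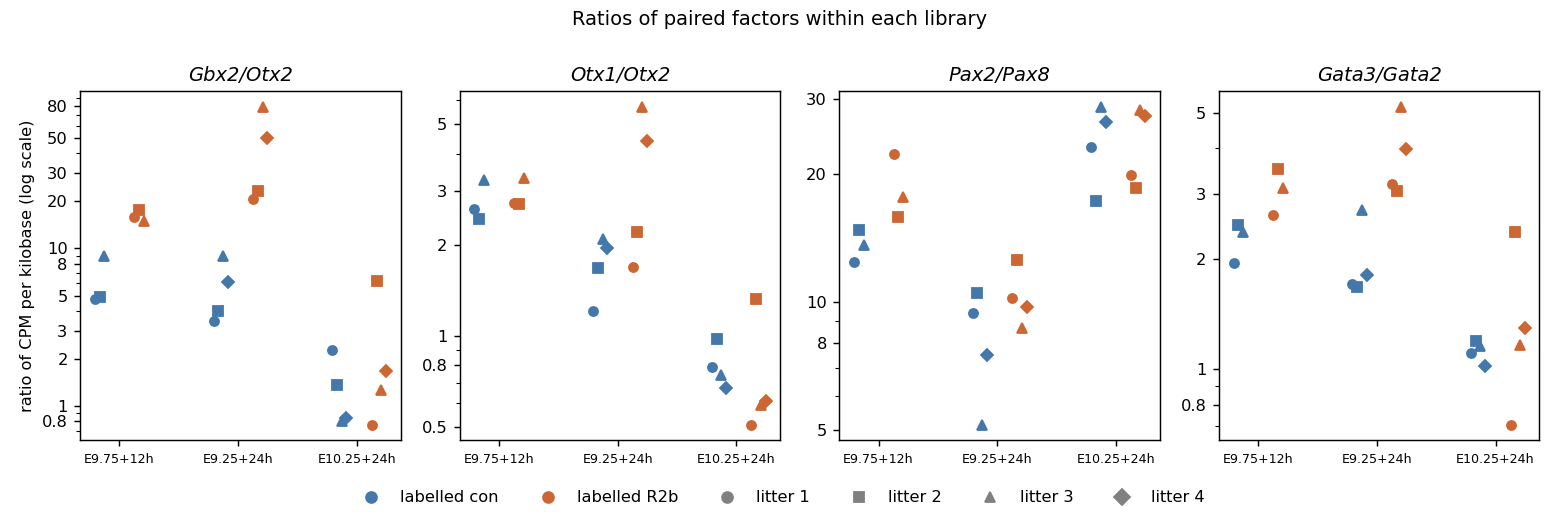
Ratio of CPM per kilobase (log axis) of 4 pairs of factors in every library, by exposure and label. Gbx2 to Otx2 is 15.0 or more in all R2b libraries of the 2 earlier exposures and at most 8.93 in con.

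The genes most like each called member were taken as the 3 with the smallest root mean square difference from it, over 22 libraries and 12806 genes, in log2 CPM minus the con mean of the exposure. The members' own root mean squares on that scale were 0.43 for Pax2, 0.55 for Gata2, 0.41 for Gbx2, 0.77 for Otx1 and 1.18 for Otx2. Nearest to Pax2 were Slc6a17 at 0.09, Lpin1 at 0.12 and the Iroquois homeobox gene Irx3 at 0.12. Gata2 had Hr at 0.23, the LIM homeobox gene Isl1 at 0.23 and the distal-less gene Dlx3 at 0.25. For Gbx2 they were Plekha2, the Notch ligand Jag1 and Ccnjl, each at 0.19. Otx1 was followed by Dapk2 at 0.26, Tspan15 at 0.27 and Tle6 at 0.27. Nearest to Otx2 were the homeobox gene Six2 at 0.38 and Fam20a at 0.42. Over the 20 libraries without litter 1 of E10.25+24h, the 3 nearest genes shared 1 with these for Pax2, 2 each for Gata2 and Gbx2, and 3 each for Otx1 and Otx2. This is a description of these libraries.

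Of 20 relatives in the same families 8 were in the table. At E9.75+12h, 3 of 7 tested were called, all higher, and at E9.25+24h, 2 of 7, both higher, where 20.0% and 15.6% of all genes were called in either direction. These were Sall1 and Sall2, zinc-finger relatives of Sall4, and at E9.75+12h Gata5. At E9.75+12h Sall1 averaged 177 ± 19.5 CPM (SD, n = 3) in con against 273 ± 12.3 CPM in R2b. The log2 fold change was 0.65 (SE 0.10, edgeR FDR 0.00189) there and 0.53 (SE 0.14, FDR 0.0317) at E9.25+24h. Sall2 averaged 381 ± 30.7 and 481 ± 19.7 CPM at E9.75+12h, higher by 0.36 (FDR 0.0216), and was higher by 0.28 (FDR 0.0323) at E9.25+24h. None of these calls remained without litter 1, where FDRs were 0.0627 for Sall1, 0.289 for Sall2 and 0.198 for Gata5 at E9.75+12h. For the 24 h exposure from E9.25 they were 0.0867 for Sall1 and 0.134 for Sall2. Nor did the calls of Sall1 and Sall2 at E9.25+24h remain without litter 2 (FDR 0.13 and 0.0804), that of Sall1 without litter 4 (0.0739) or that of Sall2 without litter 3 (0.11). At E9.75+12h Gata5 was also lost without litter 2 or 3 (0.144 and 0.0996) and Sall2 without litter 3 (0.0503). At E9.25+24h, with the litter as a block, both calls remained with all litters and with any one litter left out. Over all genes 6086 were called with that block, against 2335 without it. With the block at E9.75+12h, Sall2 and Gata5 were not called (FDR 0.0627 and 0.0956).

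Of 14 cofactors that bind such factors, 2 were called higher and 1 lower at each earlier exposure, where 20.0% and 15.6% of all genes were called in either direction. Lmo4, a LIM-only protein that joins GATA and other factors in complexes, averaged 317 ± 13.2 CPM (SD, n = 3) in con of E9.75+12h against 173 ± 20.1 CPM in R2b, or -0.85 on the log2 scale (SE 0.10, edgeR FDR 6.24e-04). The averages at E9.25+24h were 185 ± 21.4 and 109 ± 11.2 CPM (SD, n = 4), or -0.76 on the log2 scale (SE 0.10, FDR 0.0028). Cited1, a coactivator that binds AP-2 proteins, rose by 1.02 (SE 0.19, FDR 0.00487) and 1.28 (SE 0.14, FDR 0.00127). Lmo4 and Cited1 were called in every alternative fit of both exposures. Cited2 was higher by 0.48 (FDR 0.0063) and 0.20 (FDR 0.0479). Leaving out litter 1 ended its call at E9.75+12h (FDR 0.149), and leaving out any one litter ended it at E9.25+24h (FDR 0.0692 to 0.163), where with the litter as a block it remained with all litters and with any one left out. The Tle corepressors, Zfpm1 and Zfpm2 were among the 11 not called.

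Markers of the otocyst's regions were set beside the members, and their counts stand beside shares of 20.0% and 15.6% called among all genes at E9.75+12h and E9.25+24h. Of 10 dorsal genes 6 were called higher at E9.75+12h, and 4 higher and 3 lower at E9.25+24h. Bmper, a BMP-binding protein, rose by 1.14 (SE 0.11, edgeR FDR 3.35e-04) and 1.83 (SE 0.17, FDR 7.68e-04). Msx2 and Lmx1a, homeobox genes of the dorsal wall, rose by 0.83 (FDR 8.91e-04) and 0.53 (FDR 0.00334) at E9.75+12h. The canal homeobox genes Hmx2 and Dlx3 fell at E9.25+24h, with log2 fold changes of -1.05 (FDR 0.00948) and -1.12 (FDR 0.0119). Of 8 lateral genes 1 was called higher at E9.75+12h, the nuclear receptor gene Nr2f2 (0.59, FDR 0.00504), and 1 higher and 2 lower at E9.25+24h, again Nr2f2 (0.64, FDR 0.0449) and the T-box genes Tbx3 (-0.48, FDR 0.033) and Tbx1 (-0.37, FDR 0.0333). Of 10 ventral and neurosensory genes 5 and 3 were called, all higher, among them Irx3 at 0.83 in both exposures (FDR 5.57e-04 and 4.74e-04). The neurogenic factors Neurog1 and Neurod1 were called at E9.75+12h with 0.78 (FDR 0.00144) and 0.53 (FDR 0.00492). Jag1 and the ligand gene Fgf3 were called at E9.25+24h with 0.65 (FDR 0.0146) and 0.94 (FDR 0.0258). The medians of the dorsal, lateral and ventral lists were 0.49, 0.10 and 0.50 at E9.75+12h and 0.51, -0.06 and 0.31 at E9.25+24h, beside 0.01 and -0.01 over all genes.

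These regional calls were also fitted with litters left out, with and without the litter as a block. At E9.25+24h all 7 dorsal, 3 lateral and 3 ventral calls remained with the block, with all litters and with any one left out. Over all genes 6086 were called with the block, 4450 to 6161 with a litter left out, and 2335 without the block. Without the block and without litter 1 the regional calls remained for 1 of 7, 0 of 3 and 1 of 3 there. Without litter 2 the numbers were the same. Over all genes 322 and 460 were then called. At E9.75+12h and without litter 1, calls remained for 3 of 6 dorsal, 1 of 1 lateral and 2 of 5 ventral genes, and with the block for 3 of 6, 0 of 1 and 1 of 5. Over all genes 434 and 267 were then called, against 2973 with all litters and no block. Bmper and Irx3 were called in every alternative fit of both exposures. Msx2 was called in every alternative fit of E9.75+12h. Lmx1a and Neurod1 were lost there without litter 1 (0.51, FDR 0.0857, and 0.49, FDR 0.109), and Nr2f2, Neurog1 and Neurod1 with all libraries in one fit (FDR 0.0517, 0.11 and 0.289). At E9.25+24h and without the block, Jag1 was lost without litter 1 or 2, at 0.63 (FDR 0.0961) and 0.66 (FDR 0.0848). Fgf3, lost with the same litters, was at 0.92 (FDR 0.108) and 0.86 (FDR 0.141), and with all libraries in one fit at 0.93 (FDR 0.063). Hmx2 was lost at -0.98 without litter 1 (FDR 0.0855) and also without litter 2 (FDR 0.0726). Dlx3 had -1.06, -1.14 and -1.07 without litter 1, 2 or 3 (FDR 0.0981, 0.0614 and 0.0584). For Nr2f2 the values were 0.70, 0.60 and 0.72 without litter 1, 2 or 4 (FDR 0.145, 0.205 and 0.0504). Tbx3 was at -0.46, -0.45 and -0.51 without litter 1, 2 or 3 (FDR 0.0969, 0.173 and 0.0936), and Tbx1 at -0.36 and -0.33 without litter 1 or 2 (FDR 0.159 and 0.173).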

How the data were processed

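Stranded poly(A) RNA-seq of 24 samples is described in the labels, and 22 libraries of 11 litters were used. The con and R2b samples of litter 4 at E9.75+12h were not analysed here, and 2 columns that name no sample were left out of every step. The authors deposited raw read counts per gene, whole numbers for 15736 Ensembl genes. Reads were aligned to mm10 with Novoalign 2.08.03, per the submitters' processing notes, and the counting tool, annotation release and gene filter are not given in the sources used here. The lowest total of a gene was 100 counts, so a gene below that cannot be seen.

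Symbols, positions and exon lengths came from GENCODE M21 (GRCm38), with symbols for 15522 genes. Each exposure was fitted alone in edgeR 4.0.16 under R 4.3.3 (filterByExpr, TMM, estimateDisp, glmQLFit, glmQLFTest, 2 group means, Benjamini-Hochberg over all genes tested), and differences of effects were contrasts in all 22 libraries. SEs were derived from the F statistic. CPM values were TMM-scaled over all libraries. The fit was also run on simulated counts with the same dispersion for every gene and no litter effect. Such counts differ from these libraries, so recovery in these data was not measured. The spread between litters exceeded counting error (chi-square per degree of freedom 5.58 to 45.2 over 30 pairs of replicates), so no library was a duplicate. Reads have no molecular identifiers.

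Groups come from genotype and exposure in the labels. Litters pair con and R2b, since each pregnant female gave both pools. Across genes, deviations from group means correlated within litters at 0.52 to 0.83 at E9.25+24h, -0.17 to 0.44 at E10.25+24h and -0.31 to -0.17 at E9.75+12h. Between con and R2b pools of different litters the values were -0.59 to 0.31, -0.43 to 0.35 and -0.13 to 0.34, in the same order. At E9.75+12h every value within a litter was thus below every value between litters. The fit has no block, and the blocked value is given where it changes a call. Alternatives were median-of-ratios factors, other low-count filters, the litter block, one fit of all libraries, DESeq2 1.42.0, each litter or library left out, and, chosen after seeing the data, upper-quartile factors. The members and lists were chosen with earlier results of these data known. All members are named. Relatives are named where called, and other lists by up to 3 called genes of smallest FDR. Of the 3 genes most like each called member, 2 or 3 are named. Some genes chosen by these rules are not reported here, and counts, sums and medians of the lists leave them out.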

Additional observations from a re-analysis of the deposited data

Results flagged for a closer look

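A library stood apart from the others of its group in 5 of 36 groups of 4 tested, by the gap to its nearest neighbour as a share of the range (Dixon's test at 95%). Chance flags about 1 in 20 such groups. At E10.25+24h the library labelled R2b of litter 2 was highest for Pax8 at 15.1 CPM, where the others had 7.81 to 8.51 CPM, and highest for Sall4 at 33.6 CPM, where the others had 13.6 to 14.5 CPM. The library labelled R2b of litter 1 was lowest for Gata3 at 106 CPM, where the others had 145 to 152 CPM. The library labelled con of litter 2 was highest for Tfap2a at 25.5 CPM, where the others had 2.62 to 5.52 CPM. At E9.25+24h the R2b library of litter 4 was lowest for Gbx2 at 84.8 CPM, where the others had 101 to 103 CPM. Of these 5 values, 4 belong to E10.25+24h, and 3 of those to litter 2.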

How the results depend on the processing

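Pax2 and Otx1 at E9.25+24h kept their calls in all 23 alternatives. The 4 calls at E9.75+12h were lost without litter 1, where calls over all genes fell from 2973 to 434. They remained when only its con library or only its R2b library was left out. Of the 4 members called there, 2 were called with all libraries in one fit and 6 with upper-quartile factors, and leaving out litters or libraries gave 0 to 4. At E9.25+24h the 4 calls became 2 to 6 on leaving out litters or libraries. With litter as a block they were 6, where 6086 of all genes were called. With DESeq2 they were 5, where 3260 of all genes were called, against 2335 in the edgeR fit without a block. At E10.25+24h the count of members called stayed at 0 except with a block and without litter 1. There it was 3, and 614 of all genes were called.

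Over all genes, 2973 calls at E9.75+12h became 4560 with all libraries in one fit and 434 to 4583 on leaving out litters or libraries. With a litter block they were 1775, and 267 or 1595 with a block and without litter 1 or 3. The 2335 calls at E9.25+24h became 322 to 2289 on leaving out litters or libraries. With a block they were 6086, and 4715, 4450, 4602 and 6161 with a block and without litter 1, 2, 3 or 4. At E10.25+24h a block without litter 1 gave 614. For the effect at E9.25+24h minus that at E9.75+12h, the 2 exposures alone gave 1 gene and leaving out litters gave 0 to 1062. For E10.25+24h minus E9.25+24h the latter gave 0 to 69.

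Log2 values near zero changed sign. Sall4 at E9.75+12h was 0.057 with upper-quartile factors, -0.098 to 0.025 on leaving out libraries, and 0.018 and 0.0035 with a block and without litter 2 or 3. Gata3 at E9.25+24h ranged from -0.17 to 0.033, and with a block and without litter 1 or 2 it was 0.030 and 0.016. At E10.25+24h leaving out litters or libraries gave -0.0078 to 0.47 for Pax2, -0.042 to 0.46 for Pax8, -0.28 to 0.072 for Gata2, -0.11 to 0.21 for Gata3, -0.0039 to 0.71 for Gbx2 and -0.53 to 0.018 for Otx2. There a block without litter 2 gave -0.010 for Pax2, -0.11 for Gata3 and 0.026 for Otx2, and without litter 3 or 4 -0.061 and -0.010 for Gata3. The difference of the Pax8 effects, E10.25+24h minus E9.25+24h, was -0.054 with a block. Leaving out litters, that difference ranged from -0.20 to 0.23 for Pax8, -0.067 to 0.24 for Gata3, -0.38 to 0.27 for Gbx2 and -1.95 to 0.17 for Tfap2a, and the one of E9.25+24h minus E9.75+12h from -0.22 to 0.069 for Pax8 and -0.13 to 0.046 for Gbx2. The causes were not tested. With 3 or 4 litters a group, a difference that was not called is not shown to be absent.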
